A study of Mus musculus with 4 samples.

Results

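The genes of respiratory complex I were examined by RNA-Seq in cells isolated from lung tumors as CD4+ T cells. They were taken by symbol, as every gene whose name starts with Nduf with pseudogenes marked -ps left out, which gave 48 of the 25239 genes listed in each library. The symbol carries the subunit class, and the 48 genes comprised 15 of class a, *Ndufab1* on its own, 11 of class b, 2 of class c, 8 of class s, 3 of class v and 8 assembly factors (af). The label holds for most but not all of them. *Ndufa4* encodes a component of complex IV despite its name, *Ndufa4l2* encodes its hypoxia-linked paralogue, and *Ndufa11b* and *Ndufb4c* are annotated as processed pseudogenes.

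Complex I, or NADH:ubiquinone oxidoreductase, is the entry point of electrons from NADH into the respiratory chain and pumps protons across the inner mitochondrial membrane. Its NADH-binding (N) module takes up the electrons, its quinone-binding (Q) module passes them to ubiquinone, and its membrane arm moves the protons. The core subunits carry the cofactors and the chemistry and are encoded partly in the nucleus and partly in mitochondrial DNA, while the supernumerary subunits surround this core and are needed for its assembly or stability. Assembly factors act while the complex is built and are not part of the finished enzyme. In T cells, respiration supports proliferation and long-term persistence.

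WT and CD4/ALK4-KO mice were compared with 2 libraries each, all from C57BL/6 mice that had received the Lewis lung carcinoma line LLC-OVA, which expresses ovalbumin, by the intravenous route. CD4/ALK4-KO mice were CD4CreERT2+/-/*Acvr1b* fl/fl, in which tamoxifen induces Cre under the *Cd4* promoter and so deletes *Acvr1b*, the gene of the activin receptor ALK4, in cells that express *Cd4*. The methods describe young adult male mice and tamoxifen given daily up to the inoculation of the tumor cells, and whether WT mice also received tamoxifen was not given in the sources used here. Tumors were excised after 18 to 22 days according to the labels, whereas the methods name a slightly earlier interval for this model, and CD4+ cells were isolated from the leukocyte fraction with a kit. The design text calls the 2 libraries of each strain biological replicates, and how many mice stood behind each of them was not given in the sources used here.

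The libraries held 11823908 to 13943237 counts, and comparisons rested on edgeR's quasi-likelihood test of the 13919 genes with sufficient counts. The targeted gene *Acvr1b* gave 426 and 342 counts (WT) and 322 and 445 counts (CD4/ALK4-KO), so it did not separate the labels, and directions below are between libraries as labelled. The libraries also differed in cell markers. Summed CPM (counts scaled to a common library size) of 14 T cell markers were 687 and 658 in WT and 3433 and 3093 in CD4/ALK4-KO, with all 14 higher, and those of 7 B cell markers 66.5 and 52.0 against 181 and 364, also all higher. Macrophage and monocyte markers summed to 6602 and 7597 CPM against 6788 and 6301, with 3 of 12 higher and 0 lower. Most of that sum was *Lyz2*, at 4278 and 5687 CPM in WT and 4758 and 4227 in CD4/ALK4-KO. Fibroblast markers summed to 6937 and 7480 against 4872 and 4064 with 5 of 9 lower, and cell cycle genes to 1740 and 1834 against 1128 and 899 with 10 of 12 lower. Of the other marker lists, 8 of 8 CD8 T and NK cell genes, 2 of 9 neutrophil genes and 4 of 8 dendritic cell genes were higher, with 1 dendritic cell gene lower. Of 11 epithelial genes, 6 were lower and 2 higher, and of 8 endothelial genes 1 was lower and 1 higher. Erythroid markers summed to 2147 and 4692 CPM in WT and 3062 and 1232 in CD4/ALK4-KO, so they differed more than 2 times within each group. Most of this sum was *Alas2*, at 1963 and 4469 CPM in WT and 2913 and 1175 in CD4/ALK4-KO. Of the 7 erythroid genes 3 were tested and 1 was lower, and *Hbb-bt* was at 0 in every library. In bulk RNA fewer cells of a type and less RNA per cell cannot be told apart.

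Complex I transcripts were on balance less abundant in the libraries labelled CD4/ALK4-KO. Summed over the 48 genes they took 4017 and 4043 CPM in WT and 2521 and 2815 CPM in CD4/ALK4-KO. Of the 46 genes tested, 21 were lower and 0 higher at an adjusted p under 0.05, where 15.4% of all genes tested were called lower and 17.4% higher. At an unadjusted p under 0.05, 32 of the 46 members and 5898 of all 13919 genes differed, and DESeq2 also called 0 members higher. The median log2 fold change, CD4/ALK4-KO over WT, was -0.59 over the members and -0.0082 over all genes tested. In 42 members both CD4/ALK4-KO libraries lay below both WT libraries, a pattern that 34% of all genes showed, and no member had both above, against 32.7% of all genes. Among the marker lists above, fibroblast, epithelial and cell cycle sums were also lower in both CD4/ALK4-KO libraries. The sums of T cell, B cell, CD8 T and NK cell, dendritic cell and endothelial markers were higher. Those of macrophage and monocyte, neutrophil and erythroid markers overlapped between the groups. The part of these markers in the complex I values was not tested.

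Like the count over all genes, the members' count depended on the libraries. Without WT replicate 1 it was 8, without WT replicate 2 it was 7, without CD4/ALK4-KO replicate 1 it was 20, of which 16 were among the 21, and without CD4/ALK4-KO replicate 2 it was 27. In the last of these fits *Ndufaf4* was called higher. The 7 genes *Ndufa1*, *Ndufa2*, *Ndufa4*, *Ndufa5*, *Ndufa7*, *Ndufaf2* and *Ndufb9* were called lower in each of these fits. The other 14 lost the call without WT replicate 2 and, except for *Ndufc1*, also without WT replicate 1, and *Ndufa6*, *Ndufa13*, *Ndufaf8*, *Ndufb3* and *Ndufv3* lost it without CD4/ALK4-KO replicate 1 as well. The median of all genes stayed between -0.015 and 0.014 in these fits. A scaling on T cell receptor complex genes, of which 4 of 7 listed were among the counted genes, shifted the median of all genes by -2.19. This scale relates the reads of all cells in a library to its T cell transcripts. On that scale all 46 members were lower with a median of -2.76, but so were 92% of all 13919 genes, and 99.6% of all calls were in that direction, against 46.9% with the normalization used here. A correction for transcript length and GC content, described with the transcript lengths below, left 11 members called and a median of -0.30.

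**Figure D1:**
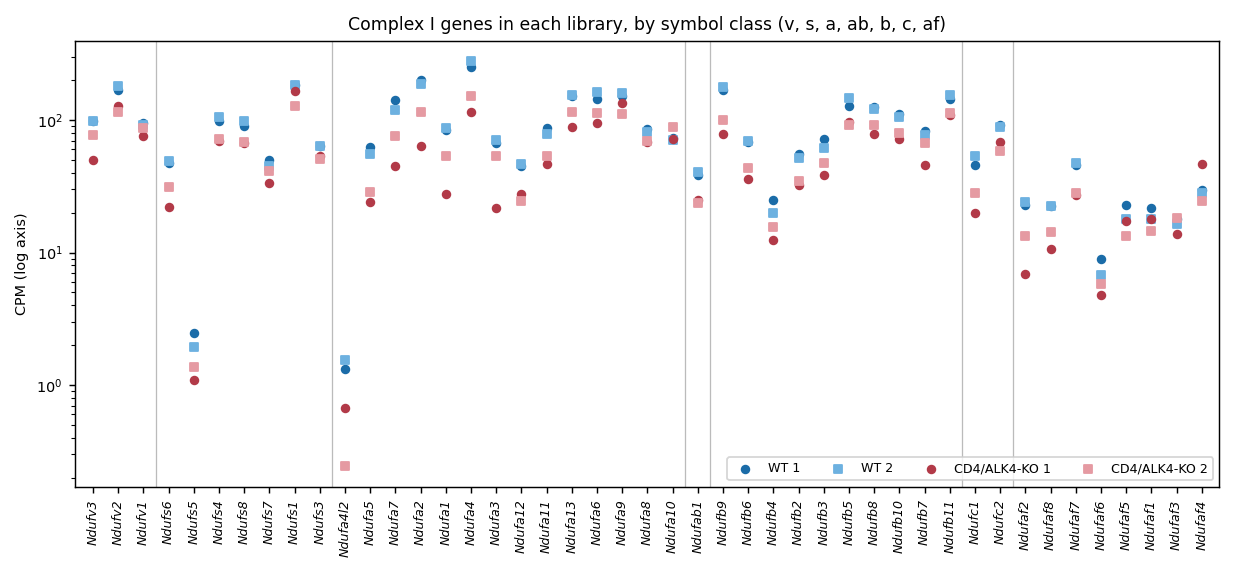
CPM of 45 of the 46 complex I genes tested in each of the 4 libraries on a log axis, ordered by symbol class and, within a class, by log2 fold change. Circles and squares mark replicates 1 and 2, blue WT and red CD4/ALK4-KO. In most genes both red points lie below both blue points, and for many class a genes CD4/ALK4-KO replicate 1 lies well below replicate 2.

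The 7 nuclear core subunits were examined first, as most of them hold the flavin, the iron-sulfur clusters or part of the quinone site. None passed the threshold in edgeR's quasi-likelihood test. At an unadjusted p under 0.05, 2 of them differed, and DESeq2 and edgeR's likelihood ratio test each called 1, *Ndufv2*. The quasi-likelihood test called 2, *Ndufs1* and *Ndufv2*, without CD4/ALK4-KO replicate 1, 2, *Ndufs8* and *Ndufv2*, with upper quartile scaling, 1 with the length and GC correction, and all 7 on the T cell receptor scale described above. On that scale 92% of all genes tested were lower as well. With the normalization used here the log2 fold changes of the 7 ran from -0.53 to -0.19 with a median of -0.34. In all 7 both CD4/ALK4-KO libraries lay below both WT libraries, a pattern that 34% of all genes tested showed. *Ndufv1* (chromosome 19, 4007384 to 4012806, GRCm38), which binds NADH and the flavin, had 1296 and 1248 counts in WT and 907 and 1085 in CD4/ALK4-KO, or 93.4 ± 1.63 against 82.0 ± 8.26 CPM (SD, n = 2). Its log2 fold change of -0.19 was the smallest of the core and below its standard error of 0.21. *Ndufv2* (chromosome 17, 66078638 to 66101559), its iron-sulfur partner in the N module, had 2310 and 2438 counts in WT and 1510 and 1415 in CD4/ALK4-KO, and differed by -0.53 on the log2 scale (standard error 0.21, adjusted p = 0.056, edgeR's quasi-likelihood test). The groups of *Ndufv2* did not overlap, and it came closest to the threshold of the 7.

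*Ndufs1* (chromosome 1, 63143596 to 63176833), the largest iron-sulfur subunit, had 2528 and 2506 counts in WT and 1958 and 1590 in CD4/ALK4-KO, which is -0.33 on the log2 scale. *Ndufs3*, a subunit of the Q module, had 871 and 866 counts against 643 and 624, and a log2 fold change of -0.29. *Ndufs7*, which carries the last cluster before the quinone, had 680 and 604 counts against 400 and 507, and -0.34. *Ndufs8*, which holds a pair of clusters, had 1241 and 1336 counts against 798 and 843, and -0.48. In each of these 4 genes the CD4/ALK4-KO libraries were the lower ones, by an amount that did not pass the test over all genes.

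The supernumerary subunits made up most of the calls. Of 29 tested, 17 were lower, with a median of -0.66 and a range from -1.17 to 0.14. Over all genes tested, 15.4% were lower. Leaving out a library changed this count, as it changed the count over all genes. By symbol class, core subunits included, a had 9 of 14 lower (median -0.84, *Ndufa4* among them), b had 5 of 10 (-0.60), c had 1 of 2 (-0.78), s had 1 of 8 (-0.43) and v had 1 of 3 (-0.53). Whether the supernumerary subunits differed from the core was not tested, and their transcripts were shorter, with a median of 704 bp against 1623 bp.

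In class a, *Ndufa5* (chromosome 6, 24518666 to 24528013), a subunit of the Q module, was the subunit with the largest fall. It had 863 and 754 counts in WT and 288 and 352 in CD4/ALK4-KO, or 59.4 ± 5.12 against 26.4 ± 3.05 CPM (SD, n = 2), which is -1.17 on the log2 scale (standard error 0.22, adjusted p = 0.00036). *Ndufa7* (chromosome 17, 33824572 to 33838317), of the N module, had 1953 and 1606 counts in WT and 535 and 928 in CD4/ALK4-KO and fell by 1.12 on the log2 scale (adjusted p = 0.0010). *Ndufa2*, an N module subunit with a thioredoxin-like fold, had 2761 and 2524 against 760 and 1418 and likewise fell by 1.12. *Ndufa1*, a small membrane subunit encoded on chromosome X, had 1146 and 1181 against 329 and 659 and fell by 1.08. In the last 3 genes the CPM of CD4/ALK4-KO replicate 2 was 1.67 to 1.93 times that of replicate 1, but the groups were apart.

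*Ndufa3*, a small subunit of the proximal membrane arm, showed the same spread in a stronger form. It had 916 and 952 counts in WT and 257 and 662 in CD4/ALK4-KO, so that CD4/ALK4-KO replicate 2 was 2.48 times replicate 1, and its log2 fold change of -0.87 had a standard error of 0.34 and did not pass the threshold (adjusted p = 0.079). It was called without CD4/ALK4-KO replicate 2 (-1.67), with the replicate number as a block (adjusted p = 0.0078), with no filter on low counts and in DESeq2 and the likelihood ratio test, and without CD4/ALK4-KO replicate 1 it was at -0.32 and not called. At the other end of class a, *Ndufa10* (chromosome 1, 92439010 to 92473860), a membrane arm subunit related to nucleoside kinases, had 1008 and 957 counts in WT and 850 and 1086 in CD4/ALK4-KO. Its groups overlapped, and the log2 fold change of 0.14 (standard error 0.21) became -0.021 without CD4/ALK4-KO replicate 2. On the T cell receptor scale it was -2.03, where the median of all genes was -2.19. *Ndufa8* and *Ndufa9*, the latter a Q module subunit that binds NADPH, had log2 fold changes of -0.27 and -0.35 and were not called. *Ndufa6*, *Ndufa11*, *Ndufa12* and *Ndufa13* were called lower, with log2 fold changes from -0.81 to -0.57. *Ndufa13*, also known as Grim19, shares 30.0% of its exon bases with *Tssk6* on the opposite strand, and as the kit does not keep the strand their reads cannot be told apart.

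The genes of the class that are not complex I subunits behaved as follows. *Ndufa4*, of complex IV, was the member with the highest level per length in WT, at 435 CPM per kb of transcript, and had 3444 and 3776 counts in WT and 1368 and 1861 in CD4/ALK4-KO. It fell by 1.00 on the log2 scale (standard error 0.22, adjusted p = 0.0016). *Ndufa4l2* had 18 and 21 counts in WT and 8 and 3 in CD4/ALK4-KO, the lowest level of the members tested, at 1.53 CPM per kb in WT. Its log2 fold change of -1.63 was the largest in size of all members but had a standard error of 0.73 and was not called (adjusted p = 0.089). It was called lower in edgeR's likelihood ratio test, and without CD4/ALK4-KO replicate 1, when it rested on the 3 counts of replicate 2, at -2.48. Leaving out both genes gave 20 of 44 lower with a median of -0.57. *Ndufa11b* (1, 0, 1 and 0 counts) and *Ndufb4c* (1, 0, 0 and 0) did not pass the filter.

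*Ndufab1* encodes the mitochondrial acyl carrier protein, which serves fatty acid and lipoate synthesis besides its place in complex I. It had 523 and 545 counts in WT and 296 and 294 in CD4/ALK4-KO, or 39.2 ± 1.5 against 24.3 ± 0.75 CPM (SD, n = 2), and fell by 0.69 on the log2 scale (standard error 0.23, adjusted p = 0.025). The replicates of both groups nearly coincided. With a transcript of 3479 bp it was the longest subunit gene, and its value after the correction for length and GC content described below was -0.70.

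Class b encodes the distal membrane arm, and all 10 genes tested had a negative log2 fold change, an unadjusted p under 0.05 and groups that did not overlap. Over all 13919 genes tested, 7012 had a negative log2 fold change and 5898 an unadjusted p under 0.05. Both CD4/ALK4-KO libraries lay below both WT libraries in 34% of all genes tested. Class b transcripts had a median of 718 bp, and 34.7% of all genes under 750 bp were called lower. *Ndufb9* (chromosome 15, 58933756 to 58939488), a subunit of the LYR motif family, had 2297 and 2411 counts in WT and 934 and 1233 in CD4/ALK4-KO and fell by 0.96 on the log2 scale (standard error 0.22, adjusted p = 0.0017). *Ndufb2*, *Ndufb3*, *Ndufb5* and *Ndufb6* also fell, by 0.56 to 0.80. The smallest difference was that of *Ndufb11*, with 1993 and 2095 counts in WT, 1295 and 1399 in CD4/ALK4-KO and a log2 value of -0.44 (adjusted p = 0.11). *Ndufb4*, *Ndufb7*, *Ndufb8* and *Ndufb10* lay from -0.67 to -0.50 and were not called. *Ndufb6* shares 39.0% of its exon bases with *Smim27*, *Ndufb11* 12.9% with *Rbm10* and *Ndufb5* 12.3% with *Mrpl47*, each on the opposite strand, which makes their counts less certain.

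Both genes of class c belong to the proximal membrane arm. *Ndufc1* had 630 and 721 counts in WT and 238 and 346 in CD4/ALK4-KO and fell by 1.05 on the log2 scale (standard error 0.24, adjusted p = 0.0018). *Ndufc2* had 1263 and 1195 counts against 809 and 720, with a log2 fold change of -0.52 that missed the threshold (adjusted p = 0.067). In *Ndufc1* and *Ndufc2* both CD4/ALK4-KO libraries lay below both WT libraries, as in 34% of all genes tested.

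The remaining subunits of classes s and v are supernumerary. *Ndufs6*, a zinc-binding subunit of the N module, had 652 and 667 counts in WT and 261 and 389 in CD4/ALK4-KO and fell by 0.86 on the log2 scale (standard error 0.24, adjusted p = 0.0076). *Ndufs4*, whose loss in mice is a model of Leigh syndrome, had 1349 and 1428 counts against 825 and 889 and a log2 fold change of -0.53 (adjusted p = 0.056). *Ndufv3* had 1357 and 1327 counts against 596 and 947 and fell by 0.64 (standard error 0.23, adjusted p = 0.036). It was no longer called without either WT replicate or without CD4/ALK4-KO replicate 1, when its log2 fold change was -0.33. *Ndufs5* had only 34, 26, 13 and 17 counts, or 4.19 CPM per kb in WT where the median subunit had 106, while its pseudogene *Ndufs5-ps* had 77, 73, 28 and 9. Reads can be split between such copies, and both values are uncertain.

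By position in the enzyme, 6 of 10 genes of the N module were lower (median -0.60), 1 of 6 of the Q module (-0.36), 4 of 9 of the proximal membrane arm (-0.73) and 6 of 11 of the distal arm (-0.64). Of all genes tested, 15.4% were lower, and the share of the Q module was near that. The median transcript lengths of these groups were 1346, 1014.5, 545 and 732 bp, and differences between positions were not tested. The Q module holds 4 of the 7 nuclear core subunits, and *Ndufa5* was its called gene.

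**Figure D2:**
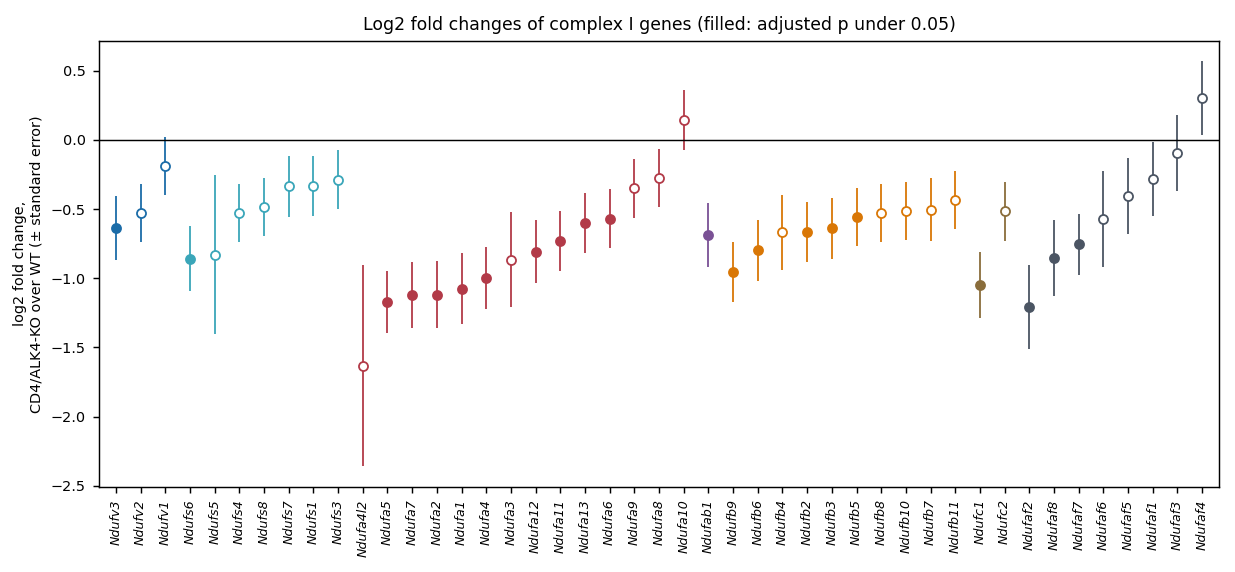
Log2 fold change, CD4/ALK4-KO over WT, with its standard error for 45 of the 46 complex I genes tested, coloured by class and ordered as in the plot of CPM by library (n = 2 libraries per group). Filled points mark the 21 genes called lower, and only *Ndufa10* and *Ndufaf4* lie above 0.

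The Ndufaf assembly factors were less abundant than the subunits, with a median of 15.5 CPM per kb in WT against 106 for the subunits. Of the 8, 3 were lower, where 15.4% of all genes tested were, with a median log2 fold change of -0.49. *Ndufaf2* (chromosome 13, 108002715 to 108158623), a paralogue of *Ndufa12* that holds its place during assembly, had 312 and 326 counts in WT and 82 and 165 in CD4/ALK4-KO. CD4/ALK4-KO replicate 2 was 1.94 times replicate 1, and the fall was 1.21 on the log2 scale (standard error 0.30, adjusted p = 0.0039). *Ndufaf7*, a mitochondrial methyltransferase, and *Ndufaf8*, which works with *Ndufaf5*, fell by 0.76 and 0.85. *Ndufaf1*, *Ndufaf3*, *Ndufaf5* and *Ndufaf6* had log2 fold changes from -0.57 to -0.096 and were not called. *Ndufaf4* (chromosome 4, 24898083 to 24905001), an early assembly factor, had 406 and 381 counts in WT and 558 and 303 in CD4/ALK4-KO. Replicate 1 of CD4/ALK4-KO lay above and replicate 2 below both WT libraries. The log2 fold change of 0.30 (standard error 0.27) became -0.20 without CD4/ALK4-KO replicate 1. On the T cell receptor scale it was -1.90, where the median of all genes was -2.19.

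Other genes of the pathway were taken from fixed lists. Their counts stand beside the 15.4% of all genes tested that were lower and the 17.4% that were higher. Of 12 further complex I assembly factors, 1 was lower and 0 higher, with a median log2 fold change of -0.15. The gene called was *Aifm1*, the flavoprotein needed for import of respiratory subunits, at -0.64 (adjusted p = 0.025), while *Ecsit* (0.27), *Foxred1* (-0.012) and *Tmem126b* (-0.055) were not called. Complex II, which feeds electrons from succinate into the same quinone pool, had 2 of 8 genes lower, its membrane anchors *Sdhc* (-0.92) and *Sdhd* (-0.62), and its catalytic subunits *Sdha* (-0.36) and *Sdhb* (-0.34) were not called. Among 13 regulators of respiratory genes 0 were lower and 2 higher, *Creb1* (0.65) and *Sp1* (0.65). The transcription factor *Nrf1* was at 0.58 (adjusted p = 0.054), *Gabpa* at 0.0036, *Yy1* at 0.043 and the mitochondrial DNA factor *Tfam* at -0.15. *Ppargc1a*, a coactivator of mitochondrial biogenesis, had 3, 4, 15 and 7 counts and did not pass the filter. For comparison, 23 of 48 genes of complexes III, IV and ATP synthase were lower (median -0.57) and 28 of 78 mitochondrial ribosomal protein genes (-0.45), and differences between complex I and these families were not tested.

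**Figure D3:**
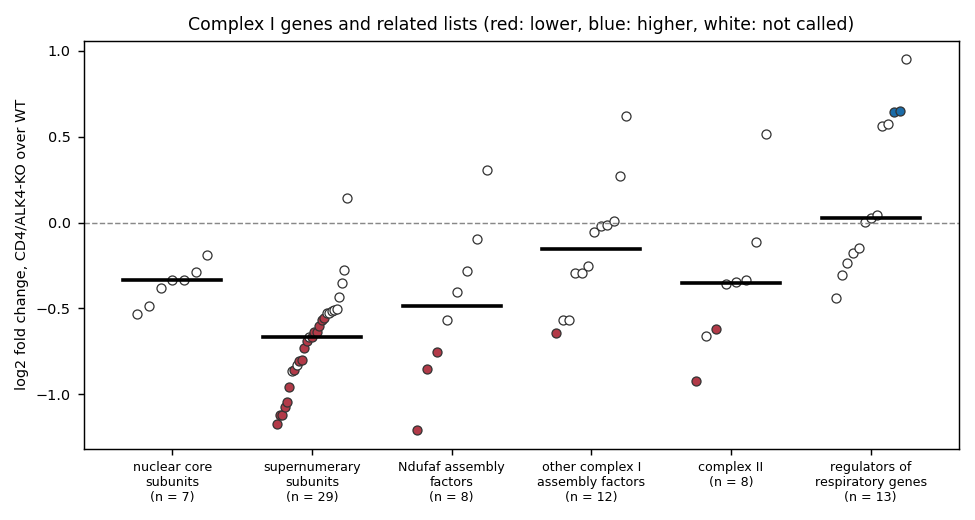
Log2 fold change, CD4/ALK4-KO over WT, of each gene tested in 6 lists (points, spread sideways in order of value), with a line at each list's median. Red points were called lower and blue higher, and the medians run from -0.66 for supernumerary subunits to 0.026 for regulators.

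The difference between the groups went along with transcript length. The complex I genes had a median transcript of 891.5 bp against 2856 bp for all genes tested with a length. Over the 46 members the log2 fold change had a Spearman rho of 0.59 with transcript length, and over 13716 genes one of 0.25, both within these 4 libraries and given as a description. All genes with transcripts under 750 bp had a median of -0.52 and 34.7% were called lower, while the 18 members of that length had a median of -0.84 and 12 were called. Between 750 and 1000 bp the median was -0.38 for all genes with 30.3% lower, and -0.64 for 9 members with 3 lower. Between 1000 and 1500 bp it was -0.24 with 20.8% lower, and -0.40 for 9 members with 3 lower. Between 1500 and 2500 bp it was -0.12 with 16.4% lower, and -0.53 for 7 members with 2 lower. Between 2500 and 4000 bp it was 0.028 with 13.6% lower, and -0.33 for 3 members with 1 lower. In each of these 5 bins the members' median was below that of all genes of the same length. Above 4000 bp, where no member lies, the median of all genes was 0.24.

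Among the members, length also went along with the spread between the CD4/ALK4-KO replicates. Over all genes the rank correlation was with GC content rather than length, but the shortest transcripts stood apart. Genes under 750 bp had a median log2 ratio of replicate 1 over replicate 2 of -0.29. In the longer bins this median lay between -0.043 and 0.031. The log2 ratio of replicate 1 over replicate 2 had a rho of 0.57 with length over the members and of -0.018 over all genes. With the GC content of the transcript its rho was -0.30 over the members and -0.50 over all genes. The median of this ratio over the members was -0.24. Replicate 1 was below replicate 2 in 33 of the 46 members, most in *Ndufa3* (-1.31), *Ndufaf2* (-0.96), *Ndufa1* (-0.95) and *Ndufa2* (-0.85). The WT replicates showed no such order, with 23 of 46 members below in replicate 1. The median coefficient of variation of the members was 4.29% in WT and 14.4% in CD4/ALK4-KO.

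With a smooth correction for transcript length and GC content fitted in each library over all genes, 11 of 46 members were lower, 10 of them among the 21, where 19% of all genes were. Their median was then -0.30. The 10 genes called in both fits were *Ndufa2*, *Ndufa5*, *Ndufa7*, *Ndufa12*, *Ndufab1*, *Ndufaf7*, *Ndufb5*, *Ndufb9*, *Ndufc1* and *Ndufv3*, with 9 of 29 supernumerary subunits among them. *Ndufs7*, *Ndufb7* and *Ndufaf3* changed sign, to 0.36, 0.22 and 0.018. Corrections for length alone and for GC content alone were alternatives added after the values were seen. With length alone 3 members were lower (*Ndufa5*, *Ndufab1* and *Ndufaf7*), where 12.7% of all genes were. With GC content alone 29 members were lower, where 20.3% of all genes were. Under the corrections that include length, the members' share of calls was thus near or below that of all genes. What produced the relation with length was not tested.

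**Figure D4:**
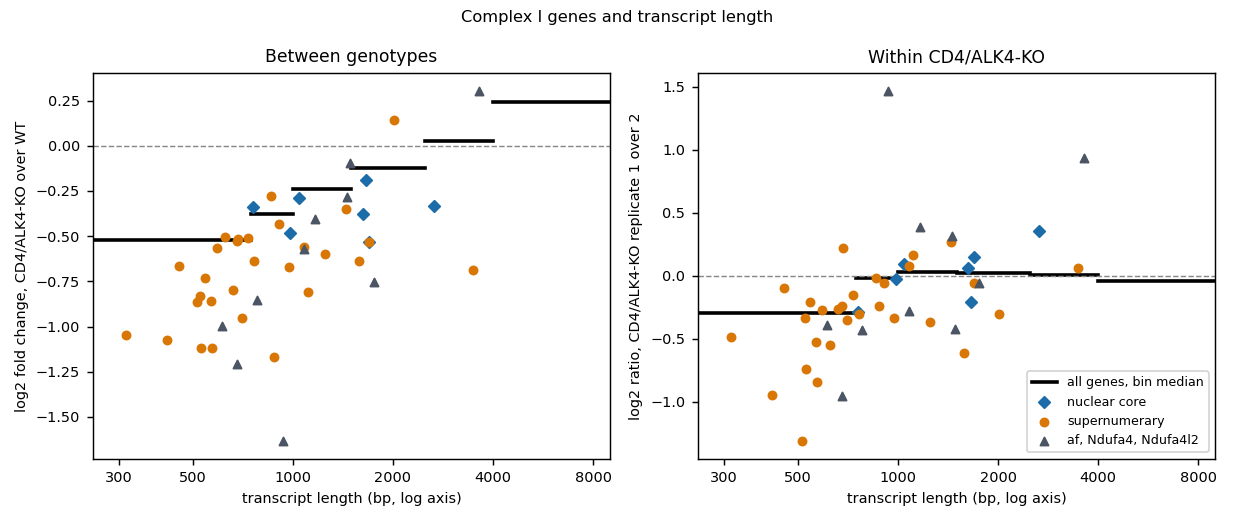
Transcript length in bp on a log axis against the log2 fold change between genotypes (left) and the log2 ratio of CD4/ALK4-KO replicate 1 over replicate 2 (right) for the 46 complex I genes tested. Black lines give the median of all genes in each length bin, and in the shortest bin they lie at -0.52 on the left and -0.29 on the right, with the members' medians at -0.84 and -0.37.

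Promoters were read from RefSeq (GRCm38.p6), as 250 bases before to 50 bases after each start, for 40 of the 48 genes with 42 promoters in all. Motifs of factors known to act on respiratory genes were searched on both strands as exact letters. The NRF1 core GCGCATGCG was in 9.52% of the members' promoters and 1.75% of 32851 promoters of all genes, the YY1 core AAGATGGC in 8 of the 42 and in 2.75%, the ETS core CCGGAAG bound by GABP in 14.3% and 8.86%, and the CRE letters TGACGTCA in 7.14% and 1.79%. The Sp1 GC box GGGCGG was in 52.4% and 35.7%, the E-box CACGTG in 7.14% and 7.15% and the letters TATAAA in 11.9% and 13.6%. By gene, the E-box was in 2 of 40 members and 2187 of 27025 genes, and TATAAA in 4 and 4234. *Ndufa7* has 2 promoters that share both. The NRF1 letters can match both strands at overlapping positions, and such a promoter was counted once. The shares in members called lower and in those not called were 4.76% and 14.3% for NRF1, 14.3% and 23.8% for YY1 and 57.1% and 47.6% for Sp1, over 21 promoters each. A match is a description of letters in this window and says nothing of binding.

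Pairs of promoters with the same motif and different fold changes are shown for the comparison of their surroundings, 5′ to 3′ along the gene with the motif in capitals. *Ndufa11* fell by 0.73 on the log2 scale and *Ndufaf4* was the member with the highest value, and both hold the palindrome of the NRF1 core. The value of *Ndufa11* was -0.011 after the length and GC correction, so the contrast of this pair rests on the uncorrected values. *Ndufa7* fell by 1.12 and *Ndufv1* was at -0.19, and both hold the E-box.
Ndufa11, chr17:56717677-56717736, plus strand: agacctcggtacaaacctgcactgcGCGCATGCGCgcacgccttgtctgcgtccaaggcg
Ndufaf4, chr4:24897945-24898004, plus strand: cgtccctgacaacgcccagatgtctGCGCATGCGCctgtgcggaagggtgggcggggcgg
Ndufa7, chr17:33824475-33824530, plus strand: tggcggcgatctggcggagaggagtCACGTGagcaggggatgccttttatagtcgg
Ndufv1, chr19:4012894-4012949, minus strand: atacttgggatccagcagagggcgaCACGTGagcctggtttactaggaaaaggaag
The motif begins 60 bases before the start in *Ndufa11*, 113 in *Ndufaf4*, 72 in *Ndufa7* and 169 in *Ndufv1*. *Ndufa7* has a second RefSeq start, and the same E-box begins 145 bases before that one.

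**Figure D5:**
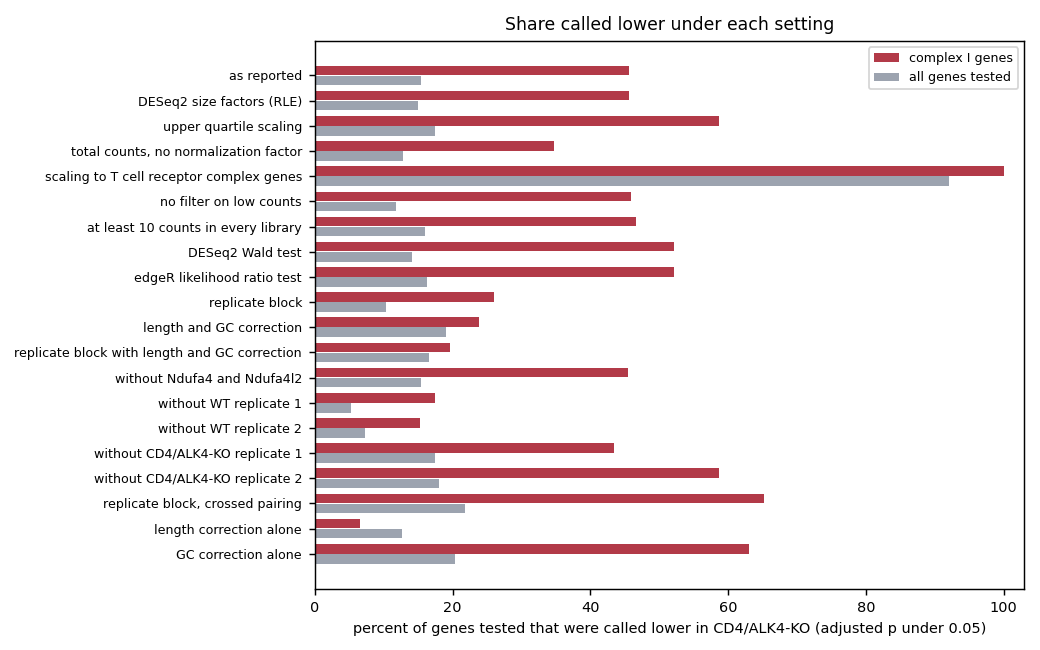
Percent of genes tested that were called lower in CD4/ALK4-KO (adjusted p under 0.05) under the reported setting and each alternative, for complex I genes (red) and all genes (grey). The red bar is the longer one in every setting except the correction for length alone, where 3 of 46 members were called.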

How the data were processed

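RNA-Seq libraries were made with the TruSeq RNA v2 kit, which does not keep the strand, and sequenced as 75 bp single-end reads. The authors deposited raw counts per gene symbol, made by HISAT2 alignment to mm10 and by htseq-count with its intersection-nonempty option, and applied no normalization to them. The annotation, the strand option and the tool versions were not given in the sources used here. The 4 libraries held 13869889 and 13943237 counts (WT) and 11959487 and 11823908 counts (CD4/ALK4-KO), and 0 columns of sample values were left unused. Replicates differed by more than sampling noise (chi-square per degree of freedom 16.0 in the first group and 28.7 in the second) and each counted as 1 sample. Where nothing states that they came from separate animals, the p-values measure only the spread between these libraries.

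With edgeR 4.0.16 in R 4.3.3, filterByExpr (minimum count 10) left 13919 genes. After TMM normalization, genotype was tested alone in a robust quasi-likelihood fit, and p-values were adjusted by Benjamini-Hochberg over all these genes, with a threshold of 0.05. CPM used TMM-adjusted library sizes, and levels per kb used the length of 1 protein-coding transcript per gene from GENCODE M21 (GRCm38), which located 24374 of the 25239 symbols. Standard errors were derived as the size of the log2 fold change over the root of its F statistic. The script was tested on simulated data. Corrections for transcript length and GC content used smooth trends per library (mgcv 1.9.3), and DESeq2 1.42.0 and other scalings, filters, tests, the replicate number as a block and each library left out in turn were alternatives.

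Members and lists were chosen with earlier results of these data known. Values in every library were given for nuclear core subunits, for the members with the lowest and highest log2 fold change of each class, for *Ndufa4* and *Ndufa4l2*, for members called higher and for members that did not pass the filter, and further members are named with their values. Of 13 listed further assembly factors, 12 were analysed. The mitochondrially encoded subunits were not analysed here, and 1 gene's own values are left out of the text and of the plots that name genes, while it is part of the counts and medians.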

Additional observations from a re-analysis of the deposited data

How the results depend on the processing

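The direction of the members as a group did not change under any alternative, while the number of calls did. The T cell receptor scaling gave 46 lower and a median of -2.76, where 92% of all genes were lower. The correction for length and GC content gave 11 and -0.30, the correction for length alone, chosen after seeing the data, 3 and -0.30. DESeq2's size factors (21), upper quartile scaling (27), total counts (16), no filter (22), a minimum of 10 counts per library (21), edgeR's likelihood ratio test (24), DESeq2's Wald test (24) and the correction for GC content alone (29, also chosen after seeing the data) stayed within 1.5 times the 21 reported. Leaving out 1 library gave 7 to 27 lower, 0 to 1 higher and medians from -0.72 to -0.49, and the lone library of a group was then assumed to vary like the others. The 7 and 8 calls without a WT replicate came with 1047 and 754 lower genes in all, against 2140.

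Replicate numbers were the same in both groups, but deviations of same-numbered libraries correlated at -0.21 over all genes tested and -0.057 over the members, and nothing in the labels says that a number marks a shared litter or day. With the replicate number as a block 12 members were lower, 11 of them among the 21, where 10.4% of all genes were. With the block and the length and GC correction 9 of 46 were, with a median of -0.31, near the 16.6% of all genes. The crossed pairing, added after seeing the data, gave 30, where 21.8% of all genes were lower.

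Single genes changed sign as follows. *Ndufa10* was at -2.03 on the T cell receptor scale and lay between -0.021 (CD4/ALK4-KO replicate 2 left out) and 0.32 with 1 library less. *Ndufaf4* was at -1.90 on that scale and lay between -0.20 (CD4/ALK4-KO replicate 1 left out) and 0.69. *Ndufaf3* was at 0.018 with the length and GC correction, 0.013 with the block added, 0.054 with length alone and between -0.33 and 0.13 (CD4/ALK4-KO replicate 1 left out). *Ndufb7* was at 0.22, 0.22 and 0.0039 and *Ndufs7* at 0.36, 0.36 and 0.079 under the first 3 of these settings, and *Ndufa8* at 0.078 with length alone. The causes of these changes were not tested. At the 18, 21, 8 and 3 counts of *Ndufa4l2*, its call depended on the test and on the libraries kept.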
